A study of Mus musculus with 25 samples.

Results

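The kidney tubule genes described here were 10 named genes, Kap, Umod, Slc34a1, Slc12a1, Slc12a3, Slc22a6, Slc22a12, Slc5a2, Miox and Lrp2, measured in the white fat around the gonads of male mice (perigonadal white adipose tissue, pgWAT). They were found by gene name on a single-colour Agilent mouse array, where they held 17 of the 56605 gene probes and 10 of the 37074 gene names. The genes had been chosen by their measured levels, because kidney transcripts were high on some arrays of the ChREBPβ line, so their levels in that line are given as a description, with no test. Tests were kept to the total ChREBP line, whose arrays the choice did not use.

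ChREBP, encoded by Mlxipl, is a glucose-responsive transcription factor with the isoforms ChREBPα and ChREBPβ. ChREBPβ KO mice carried a CRISPR/Cas9 deletion, in the whole body, of the exon specific to ChREBPβ (6 arrays), and total ChREBP KO mice were Mlxipl-null and lacked both isoforms (5 arrays). Each line had its own WT mice (7 arrays in each). All mice were C57BL6/J males on a regular diet, fasted for 24 h and then refed for 18 h with food and water holding 20% glucose; their age was not given in the sources used here. More than one ChREBPβ line was derived, and the labels do not say which line a mouse came from. Each array carried RNA of 1 sample, named here by its group and replicate number, and the labels gave each array 1 of 4 wash batches.

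The kidney tubule is a tube of transporting epithelium in which each segment is known by its own carriers. The proximal tubule takes back phosphate, glucose, urate and filtered protein, the thick ascending limb of the loop takes back sodium chloride and secretes uromodulin, and the distal convoluted tubule holds the thiazide-sensitive cotransporter. Adipocytes are not known for any of these functions, although megalin, the product of Lrp2, is also made by other absorptive epithelia, among them those of the male reproductive tract.

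The probes decide what was seen, so the first 30 bases of a few are shown, 5′ to 3′ as in the array files and in lower case, each with the place of its whole 60-base probe on mm9. The set holds the proximal, loop and distal genes that varied most plainly, the pair of Slc12a1 probes that behaved differently, and Lrp2, which had a pattern of its own. Which part of a transcript each probe lies in was not looked up here.
Kap (chr6:133799925-133799984, minus strand): caaagaagaaagaacgaggaagtgatcctg
Umod (chr7:126606529-126606588, minus strand): aaacaagttggcatctttcagtgctgttct
Slc12a3 (chr8:96875636-96875695, plus strand): gcaggctagcaccatcttccagtcggagca
Slc12a1, brightest probe (chr2:125055224-125055283, plus strand): ctgctagctggaggtatattaggtaggtga
Slc12a1, other probe (chr2:125021044-125021103, plus strand): ggagaccaactaaaagtgataaatattctt
Lrp2, brightest probe (chr2:69262566-69262625, minus strand): gcaagtagcattcccggtttctctgtgcta
None of the 17 member probes shared a run of 20 bases with a probe of another gene on the array.

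Levels are log2 median spot intensities after quantile normalisation, and a gene is read by its brightest probe, the one with the highest mean over the 25 arrays. A level is said to be not well above background where the scanner software did not mark it so; the dimmest probe marked so on an array lay between 4.20 and 4.67. Levels of one probe are compared across arrays, and those of different probes are brought together only in summed intensities. Of 10 adipocyte genes all were well above background on all 25 arrays: Adipoq, the adiponectin gene, lay between 17.21 and 17.99 and Plin1, which encodes perilipin, between 15.30 and 16.12, while Lep, the leptin gene, ranged from 8.23 to 11.53. In total ChREBP KO against WT 3 of the 10 passed by limma, all higher, among them Plin1, where 3.47% of all probes passed as higher. The brightest Mlxipl probe lay between 14.09 and 14.29 on total ChREBP KO arrays, 15.64 and 16.28 on their WT arrays, 14.02 and 14.71 on ChREBPβ KO arrays, and 14.70 and 15.43 on theirs; whether it lies in the deleted part was not known here. Some arrays stood apart for other tissues: the epididymal gene Lcn5 was at 17.63 on total ChREBP WT replicate 2, and the pituitary hormone gene Prl at 14.15 on ChREBPβ KO replicate 2.

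All members but Lrp2 were high on the same few arrays. On ChREBPβ WT replicates 1 and 3, 10 of 10 members were at least 2-fold above their own median over the 25 arrays, on ChREBPβ WT replicate 7, 9 of 10, on ChREBPβ KO replicate 2, 7 of 10, and on ChREBPβ KO replicate 4, 4 of 10. Of all probes, 1.48%, 2.46%, 2.08%, 1.39% and 2.63% were so on these arrays; since such arrays chose the members, nothing is read from that gap. On the other 20 arrays at most 2 members were raised: 2 were on ChREBPβ WT replicate 4, total ChREBP WT replicate 2 and total ChREBP KO replicate 4, where 1.68%, 3.49% and 1.9% of all probes were. In RNA of whole tissue, more cells of a type and more RNA per cell cannot be told apart.

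**Figure D1:**
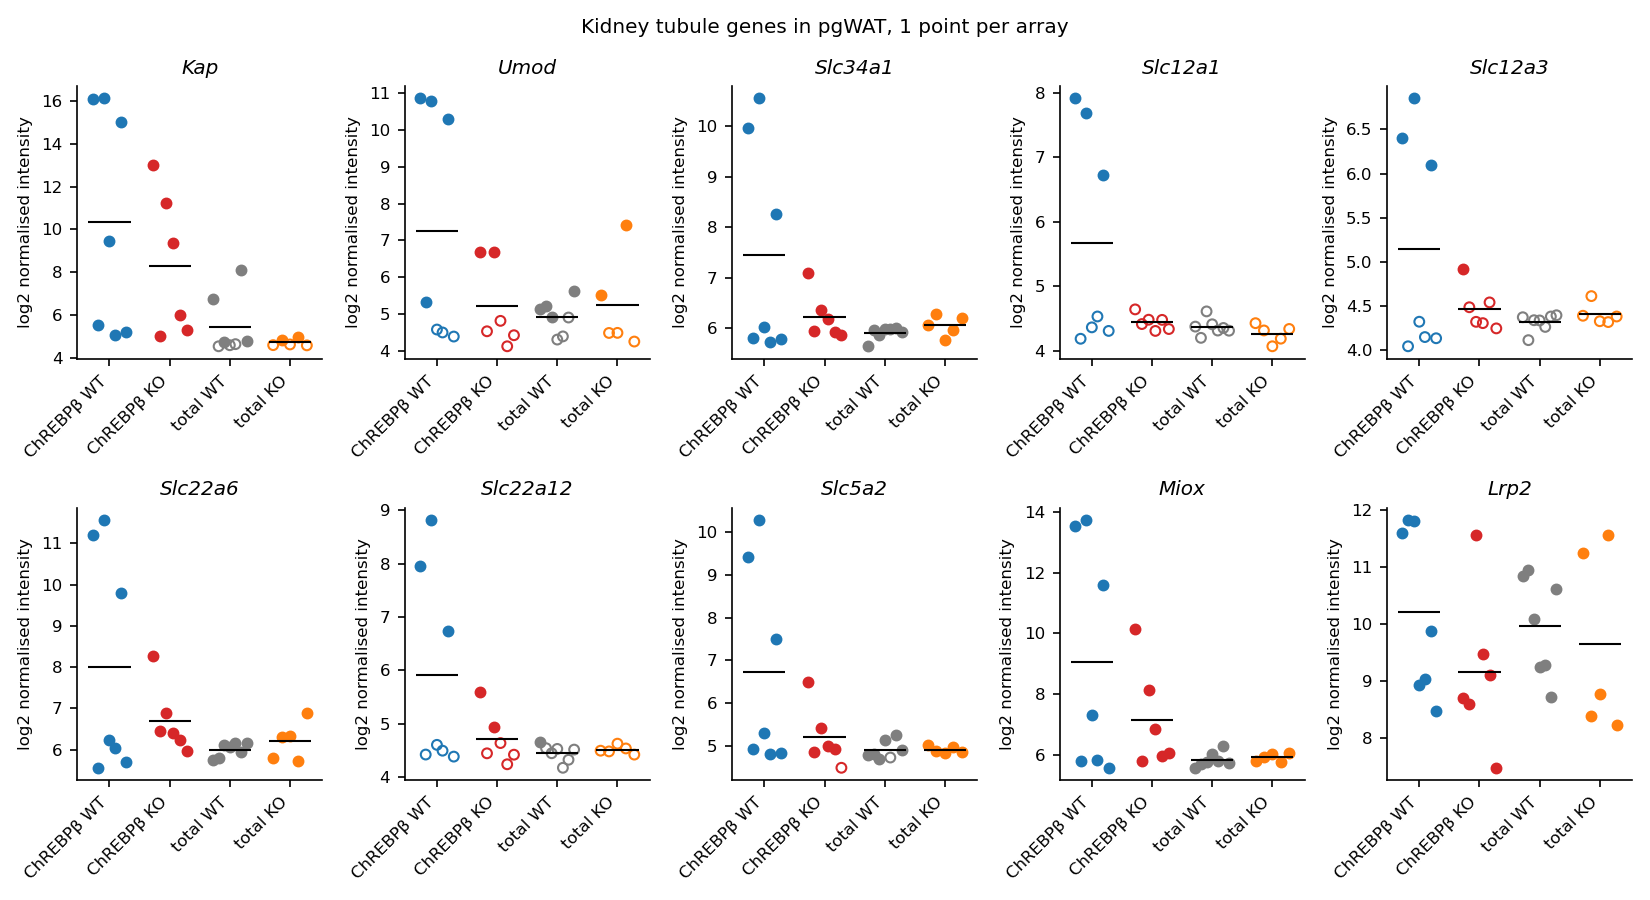
Log2 normalised intensity (vertical axis, own scale in each panel) of the brightest probe of the 10 members in the 4 groups. Each point is 1 array in order of replicate number, open where the probe was not well above background, and the line is the group mean; in 9 panels the same 3 ChREBPβ WT arrays (replicates 1, 3 and 7) are the highest points, while Lrp2 is spread in every group.

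Among the proximal tubule genes, Kap had the widest range. It encodes the kidney androgen-regulated protein, a secreted product of proximal tubule cells. On ChREBPβ WT arrays Kap went from 5.08 to 16.12 with a median of 9.46, with 16.08, 16.12 and 15.02 on replicates 1, 3 and 7 and 9.46 on replicate 4. On ChREBPβ KO arrays it went from 5.02 to 13.00 with a median of 7.68, with 13.00, 11.21 and 9.35 on replicates 2, 4 and 5. The remaining ChREBPβ WT arrays were at 5.56 or lower, so this group held both the highest levels and levels like those of the total ChREBP line, and the ChREBPβ groups overlapped. On total ChREBP WT arrays the lowest, median and highest values were 4.54, 4.75 and 8.11, the 2 highest being 8.11 on replicate 7 and 6.77 on replicate 2. The 5 total ChREBP KO arrays read 4.60, 4.84, 4.63, 4.98 and 4.59, with 2 of the 5 well above background. Its level on ChREBPβ WT replicate 3 was 1903-fold its median over all arrays.

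Miox, the myo-inositol oxygenase of the proximal tubule, followed the same arrays. It went from 5.57 to 13.75 on ChREBPβ WT arrays (median 7.30), with 13.56, 13.75 and 11.59 on replicates 1, 3 and 7. On ChREBPβ KO arrays it went from 5.79 to 10.14 (median 6.45), with 10.14 on replicate 2 and 8.15 on replicate 4. Total ChREBP WT arrays lay between 5.57 and 6.30 (median 5.76), and the 5 total ChREBP KO arrays read 5.80, 5.94, 6.04, 5.75 and 6.04. Within the total ChREBP line Miox therefore stayed within a span of less than 1 log2 unit.

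The proximal carriers moved alike. Slc34a1, the sodium-phosphate cotransporter of the brush border, read 9.96, 10.56 and 8.25 on ChREBPβ WT replicates 1, 3 and 7 and between 5.72 and 6.02 on the other 4. On ChREBPβ KO arrays it lay between 5.86 and 7.09 (median 6.06), the highest again being replicate 2. Its second probe had a wider range, from 4.71 to 12.50, and a Pearson r of 0.96 with the brightest one. Slc22a6, a basolateral organic anion carrier, read 11.20, 11.57 and 9.79 on the same 3 ChREBPβ WT arrays and between 5.56 and 6.22 on the others. On ChREBPβ KO arrays Slc22a6 lay between 5.98 and 8.27 (median 6.43). Slc5a2, the main glucose carrier of the proximal tubule and the target of gliflozin drugs, read 9.42, 10.28 and 7.51 on these arrays against 4.83 to 5.30 on the other ChREBPβ WT arrays. Its second probe, which the files place across a longer stretch of chromosome 7, moved only between 4.93 and 6.34. Slc22a12, the urate carrier, was well above background on 6 of 25 arrays, with 7.95, 8.82 and 6.74 on ChREBPβ WT replicates 1, 3 and 7, 5.60 and 4.94 on ChREBPβ KO replicates 2 and 4, and 4.67 on total ChREBP WT replicate 2.

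Genes of later segments were on the same arrays. Umod encodes uromodulin, the main protein of normal urine, made in the thick ascending limb. It read 10.86, 10.78 and 10.28 on ChREBPβ WT replicates 1, 3 and 7, and the group went from 4.39 to 10.86 with a median of 5.33. On ChREBPβ KO arrays Umod went from 4.12 to 6.68 (median 4.67), with 6.68 on replicates 2 and 4. Total ChREBP WT arrays lay between 4.30 and 5.62 (median 4.93), and the total ChREBP KO arrays read 5.51, 4.48, 4.49, 7.42 and 4.25. Replicate 4 of that group was thus the fourth highest of all 25 arrays for Umod, although Kap and Miox were low there.

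Slc12a1, the loop-diuretic-sensitive cotransporter, was well above background on 3 of 25 arrays, ChREBPβ WT replicates 1, 3 and 7, at 7.91, 7.69 and 6.73; the other 22 arrays lay between 4.07 and 4.64. Its second probe, which the files place nearer the 5′ end of the gene, was not well above background on any array, including those 3. Slc12a3, the thiazide-sensitive cotransporter of the distal convoluted tubule, was well above background on 4 arrays: it read 6.40, 6.85 and 6.09 on the same 3 ChREBPβ WT arrays and 4.92 on ChREBPβ KO replicate 2.

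Lrp2 did not share this order of arrays. It was well above background on all 25 arrays and high in every group: 11.58, 11.82 and 11.80 on ChREBPβ WT replicates 1, 2 and 3, 11.56 on ChREBPβ KO replicate 4, 10.95 and 10.84 on total ChREBP WT replicates 3 and 2, and 11.24 and 11.55 on total ChREBP KO replicates 1 and 4. ChREBPβ KO replicate 2, where 7 of the members were raised, was at 8.70, below the median of 9.28 over all arrays. Of its 4 other probes, the nearest one had a Pearson r of 0.996 with the brightest probe, the rest had r of 0.77, 0.56 and -0.02, and the last of these stayed between 6.78 and 7.38 on every array.

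**Figure D2:**
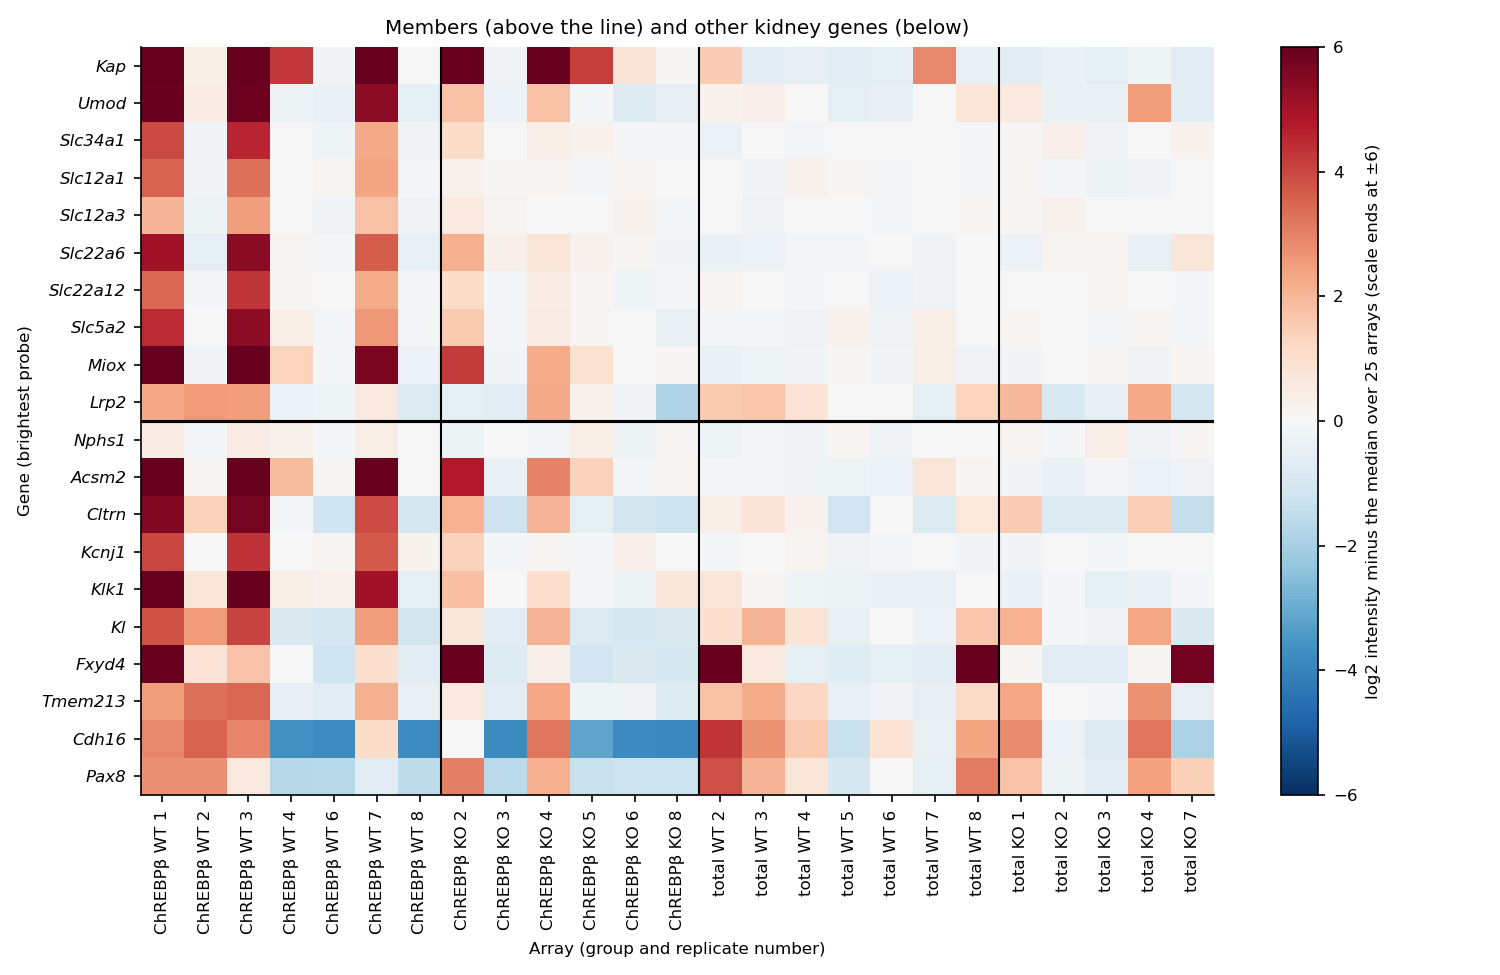
Log2 intensity minus the gene's median over 25 arrays (colour, scale ending at ±6) for the 10 members and for 10 other kidney genes with wide ranges in their segment lists; columns are arrays by group and replicate number. The columns of ChREBPβ WT 1, 3 and 7 are red for the members other than Lrp2 and for Acsm2, Kcnj1 and Klk1, those of ChREBPβ KO 2 and 4 are paler and red for fewer genes, while Lrp2, Tmem213, Cdh16 and Pax8 are red on other arrays too.

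Likeness was measured for each member as the correlation over the 25 arrays with the mean of the other 9, each as its deviation from its own median. Pearson r lay between 0.89 and 0.98 for 9 members and was 0.40 for Lrp2; Spearman rho lay between 0.36 and 0.79 for the 10. The arrays share the normalisation, and r rests on the few high arrays: over the 12 total ChREBP arrays alone, Pearson r lay between -0.78 for Slc22a6 and 0.52 for Umod. These values are a description and carry no p.

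In group means the order was alike for most members. ChREBPβ WT had the highest mean for 10 of 10 members, for example 10.4 ± 5.26 for Kap and 9.05 ± 3.77 for Miox (SD, n = 7), and ChREBPβ KO came second for 8 of them, at 8.31 ± 3.37 and 7.15 ± 1.71 (SD, n = 6). The total ChREBP groups had means of 5.46 ± 1.41 in WT (SD, n = 7) and 4.73 ± 0.18 in KO (SD, n = 5) for Kap. For no member did neighbouring groups in this order differ by more than the larger of their SDs.

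Between the ChREBPβ groups, the fitted difference of KO minus WT was below 0 for 10 of 10 members, from -1.91 for Umod to -0.62 for Slc12a3, with a median of -1.15 beside 0.02 for all probes. Standard errors lay between 0.34 and 1.43. The groups overlapped for 10 of 10 members, and 0.0742% of all probes did not overlap in that comparison. Slc12a1 was not well above background on any ChREBPβ KO array and on 3 of 7 ChREBPβ WT arrays. With KO levels raised to the floor, the mean over all WT arrays was 2.22-fold higher. This is no lower bound, since WT arrays at background entered as read, and the medians were 4.53 in WT and 4.45 in KO. Leaving out any single array kept the median difference between -1.53 and -0.80. Without the 4 arrays on which 5 or more members were raised the median was 0.20; since these arrays were left out for their high member levels, a smaller difference follows from that choice.

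The total ChREBP WT group lay below the ChREBPβ WT group for 10 of 10 members, by a median difference of -1.67, from -4.91 ± 1.37 for Kap (SE) to -0.25 ± 0.70 for Lrp2. Miox differed by -3.22 ± 0.96 and Umod by -2.32 ± 0.92 (SE). The WT groups overlapped for all 10, while 3.65% of all probes did not overlap. Slc12a1 and Slc12a3 were each measured on 3 ChREBPβ WT arrays and on no total ChREBP WT array. Computed as before, their means were 2.22-fold and 1.55-fold higher on ChREBPβ WT arrays, again no lower bounds. Medians on ChREBPβ WT and total ChREBP WT arrays were 4.53 and 4.35 for Slc12a1, and 4.32 and 4.34 for Slc12a3. Without the same 4 arrays, and with the same limit, the median difference was 0.00, and Kap differed by -1.499. These comparisons share the ChREBPβ WT arrays with the one before.

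Loss of both isoforms was tested for the members in the total ChREBP line, where several of them lay near background. None of the 10 passed in total ChREBP KO against WT by limma with Benjamini-Hochberg adjustment over all probes, of which 5.75% passed; 0 had an unadjusted p under 0.05, against 16.1% of all probes, and the smallest adjusted p was 0.89. The median fitted difference was 0.03 beside 0.01 for all probes. Kap differed by -0.76 ± 1.51, Lrp2 by -0.42 ± 0.78, Umod by 0.27 ± 1.02 and Miox by 0.03 ± 1.06 (SE). These values were not stable: Kap went from -2.73 with a replicate block in place of wash batch to -0.01 without KO replicate 7, Lrp2 from -1.03 without KO replicate 1 to -0.04 without KO replicate 2, Umod from -0.82 with the block to 0.84 without KO replicate 7, and Miox from -1.16 with the block to 0.37 without KO replicate 7, none of them past the threshold. Slc12a1 and Slc12a3 were not well above background on any of these 12 arrays and Slc22a12 was on 1, so their differences are between background levels. Kap and Umod were each well above background on 4 WT and 2 KO arrays. For members this dim, the lack of a call says little. The groups overlapped for 10 of 10 members, and 4.97% of all probes did not overlap.

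These standard errors hold the spread of the ChREBPβ arrays, which were in the same fit. In a fit of the 2 total ChREBP groups alone, 0 of 10 members passed and 0 had an unadjusted p under 0.05, while 5.01% of all probes passed and 17% had such a p. Its 95% intervals for KO minus WT ran from -1.95 to 0.75 for Kap, from -0.82 to 1.38 for Umod, from -0.16 to 0.31 for Miox and from -0.23 to 0.26 for Slc5a2. A fall of 1 log2 unit in Kap and a rise of that size in Umod lay inside these intervals. Slc5a2 lay near the floor in both groups, so a fall there could hardly have been seen. Kap and Umod were at background on some arrays of both groups, so the floor also limited any fall in them.

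**Figure D3:**
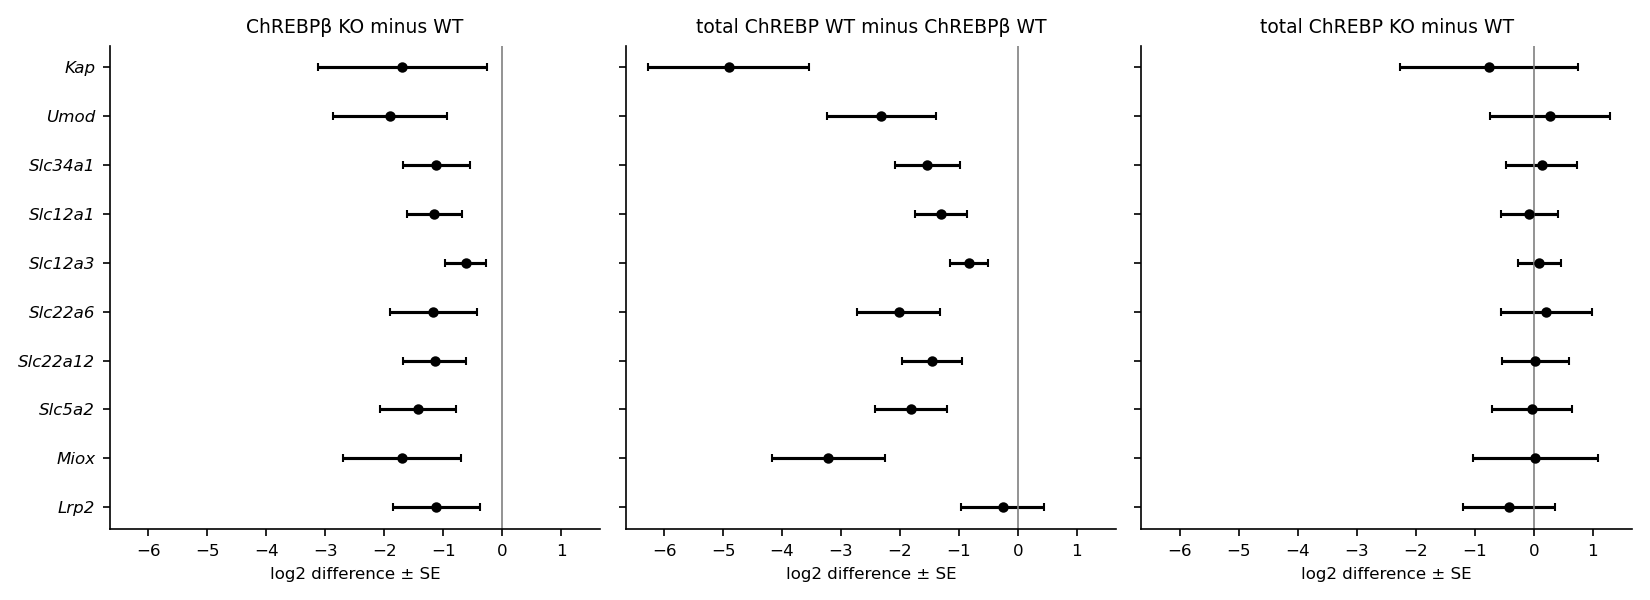
Fitted log2 difference (horizontal axis, bars are SE) of each member in 3 comparisons. All 10 points lie below 0 in the ChREBPβ KO minus WT and total ChREBP WT minus ChREBPβ WT panels, which are descriptions, and around 0 in the tested total ChREBP KO minus WT panel, where none passed. Differences of Slc12a1, Slc12a3 and Slc22a12 involve levels near background, as do those of Kap, Umod and Slc5a2 in the tested panel.

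Wash batches held the high arrays unevenly. ChREBPβ WT replicates 1 and 7 were in wash batch 3, and ChREBPβ WT replicate 3 and ChREBPβ KO replicates 2 and 4 in wash batch 1; no array of wash batches 2 and 4 had more than 2 members raised. Within wash batches 1 to 4, Miox differed between ChREBPβ KO and WT by -1.38, -0.01, -5.72 and 0.30, and between total ChREBP KO and WT by -0.05, 0.34, 0.00 and 0.15. Kap differed within them by -0.68, -0.54, -6.20 and 0.50 in the first comparison and by 0.24, 0.08, -1.79 and -1.18 in the second. Each batch held 1 or 2 arrays of each group. High and low arrays shared slides: ChREBPβ WT replicate 3 lay on a slide with total ChREBP KO replicate 4, where 2 members were raised, and ChREBPβ WT replicate 1 with total ChREBP WT replicate 6, where 0 were and 0.419% of all probes were. The part of wash batch in the levels was not tested beyond its term in the fit.

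**Figure D4:**
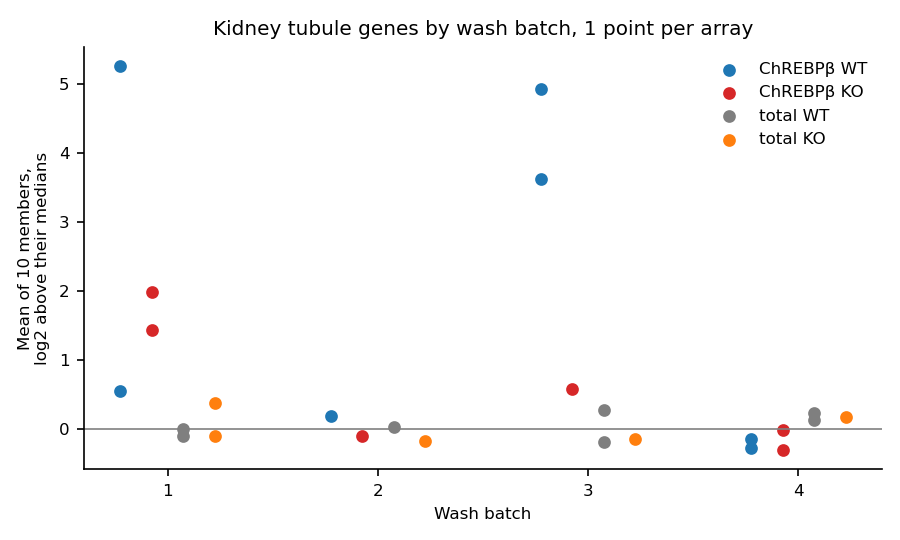
Mean over the 10 members of the log2 level above each member's median (vertical axis) by wash batch (horizontal axis), 1 point per array, coloured by group. The 3 points above 3 are ChREBPβ WT arrays in wash batches 1 and 3, and total ChREBP points lie between -0.19 and 0.38 in every batch.

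The other kidney genes, 81 from lists of tubule segments and podocytes, were partly raised on the same arrays as the members. On ChREBPβ WT replicates 1, 3 and 7, 46, 51 and 33 of the 81 were at least 2-fold above their median over the arrays, against 13 and 19 on ChREBPβ KO replicates 2 and 4. Arrays with few members raised also held some: 19 of the 81 were raised on ChREBPβ WT replicate 2, where 1 member was, and 16 on total ChREBP WT replicate 2, where 2 were. By segment, 29, 31 and 20 of 41 proximal genes, 4 of 10 loop genes on each, 5, 5 and 4 of 8 distal genes, and 4, 8 and 3 of 14 collecting duct genes were raised on the 3 ChREBPβ WT arrays. These lists, too, were drawn up with results of the arrays known.

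Several of the genes with the widest ranges in their segment had the members' order of arrays. Acsm2, a mitochondrial acyl-CoA synthetase of the proximal tubule, read 12.81, 13.13 and 11.37 on ChREBPβ WT replicates 1, 3 and 7, 9.34 on ChREBPβ KO replicate 2, and at most 5.26 on a total ChREBP array. Cltrn, the amino acid transport chaperone collectrin, read 11.17, 11.37 and 9.52 on them, and up to 7.16 in the total ChREBP line. Kcnj1, the apical potassium channel of the loop, read 8.37, 8.70 and 8.06, and Klk1, tissue kallikrein of the connecting tubule, 11.44, 12.14 and 10.25. Nphs1, which encodes the podocyte slit protein nephrin, moved only between 4.73 and 5.54. Ren1, the renin gene of juxtaglomerular cells, stayed between 5.41 and 6.10.

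Some kidney genes had a higher correlation with Lrp2 than with the mean of the members, which itself holds Lrp2. Chosen after their values were seen, the correlation with Lrp2 over the 25 arrays was 0.93 for Tmem213, a gene of acid-secreting intercalated cells, 0.88 for Kl, which encodes klotho, and 0.85 for Cdh16, kidney-specific cadherin, against 0.57, 0.71 and 0.38 with the mean of the members. Cdh16 read 12.90 on total ChREBP WT replicate 2, 12.16 on ChREBPβ WT replicate 2, 11.83 on total ChREBP KO replicate 4 and 11.82 on ChREBPβ KO replicate 4. Pax8, a transcription factor of renal and other epithelia, was highest on the same total ChREBP WT array at 10.17. On total ChREBP WT replicate 2, ChREBPβ WT replicate 2 and total ChREBP KO replicate 4, all 6 listed testis germ cell genes were raised. On ChREBPβ KO arrays, replicate 4 among them, at most 1 of the 6 was. Their correlation with Lrp2 over the 25 arrays lay between 0.40 for Tnp2 and 0.64 for Prm1. Which tissue the Lrp2-like transcripts came from was not tested. Fxyd4, a regulator of the sodium pump in the collecting duct, had an order of its own, with 13.10 on total ChREBP WT replicate 8, 12.79 on ChREBPβ KO replicate 2, 12.36 on ChREBPβ WT replicate 1 and 11.24 on total ChREBP KO replicate 7.

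Of the 81 other kidney genes 2 passed in total ChREBP KO against WT, both higher, where 5.75% of all probes passed and 3.47% passed as higher. The median difference of the 81 was -0.10. Slc4a4, a sodium bicarbonate cotransporter, read 10.94, 10.95, 10.79, 11.04 and 10.53 on the KO arrays and between 9.59 and 10.19 on the WT arrays, a difference of 0.90 ± 0.23 (SE, adjusted p = 0.024 by limma). Aqp1, a water channel of the proximal tubule that is also made by small vessels, read 15.65, 15.62, 15.48, 15.64 and 15.67 on the KO arrays and between 14.88 and 15.40 on the WT arrays, a difference of 0.48 ± 0.11 (SE, adjusted p = 0.011 by limma). Neither pair of groups overlapped, where 4.97% of all probes did not overlap. Both genes were named because they passed, so this adds no separate result. As the mean over its 4 probes, Slc4a4 differed by 0.55 ± 0.15 (SE, adjusted p = 0.033 by limma). Slc4a4 was higher still on ChREBPβ WT replicates 3 and 1, at 11.55 and 11.08, and had r of 0.51 with the mean of the members, while Aqp1 had r of 0.09. The call of Slc4a4 was lost without any 1 of total ChREBP WT replicates 4 and 5 and KO replicates 1, 3 and 4, with adjusted p between 0.052 and 0.098.

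The genes most like the members were sought among 45326 probes that were well above background on at least 3 arrays. Members were left out of this search and listed kidney genes were kept. Of these probes, 0.119% had r over 0.9 with the mean of the members. Of the 81 listed kidney genes, each by its brightest probe and without the limit of 3 arrays, 17 had r over 0.9. The lists were drawn up with results of the arrays known, and the members were chosen for high levels on some of them. Nothing is therefore read from the gap between that count and the share of probes. The 10 genes with the highest r, from 0.99 down to 0.97, were Hsd3b4, Akr1c21, Acsm2, Dnase1, Hao2, Gm853 (now Ldc1), Slc7a13, Klk1, Calb1 and Slc5a12, with Spearman rho between 0.43 and 0.80. Of these, Acsm2, Slc7a13, Klk1, Slc5a12 and Calb1, which encodes the calcium buffer calbindin of the distal tubule, were already in the kidney lists, and Hao2 in a list of genes shared by kidney and liver. The steroid-metabolising enzymes Hsd3b4 and Akr1c21 read 10.40 and 11.52 on ChREBPβ WT replicate 3 and no more than 4.69 and 4.53 on any total ChREBP array. Dnase1, a secreted nuclease, read 12.55, 12.17 and 11.48 on ChREBPβ WT replicates 1, 3 and 7, 9.36 on ChREBPβ KO replicate 2 and 6.19 at most in the total ChREBP line.

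Genes of other organs were raised partly on the same arrays and partly on others. On ChREBPβ WT replicates 3 and 7, where 10 and 9 members were raised, all 14 hepatocyte genes were at least 2-fold above their median, and each of the 14 had its highest level on one of these arrays: Alb, the albumin gene, read 17.59 and 17.65 there, and Ttr, the transthyretin gene, 16.31 on replicate 3. On ChREBPβ WT replicate 1, where all 10 members were raised, 0 of the 14 were, with Alb at 14.88. The median of Alb was 14.88 over all 25 arrays but 11.09 over the total ChREBP arrays. A count of 0 raised therefore does not mean that hepatocyte transcripts were absent from that array. On ChREBPβ KO replicate 8, where 0 members and 1.7% of all probes were raised, 14 of 14 were, with Alb at 17.48. Of 12 epididymis genes 7 were raised on total ChREBP WT replicate 2, 4 on ChREBPβ WT replicate 1 and 0 on ChREBPβ WT replicates 3 and 7. Of 8 adrenal cortex genes at most 2 were raised on any array. The enzyme genes Cyp11b1 and Cyp11b2 were not well above background on any array, Cyp21a1, Star and Mc2r were on all 25, and Akr1b7, an aldo-keto reductase gene also known from the vas deferens, went from 4.38 to 18.05, highest on ChREBPβ KO replicate 2. The summed intensity of the members lay between 653 and 96828 on ChREBPβ WT arrays, 509 and 10500.2 on ChREBPβ KO arrays, 939 and 2293 on total ChREBP WT arrays and 691 and 3473 on total ChREBP KO arrays. That of the hepatocyte genes lay between 105429 and 1243279.7, 39582 and 846084, 6075 and 160941, and 5769 and 8111. Such sums follow the brightest probes. On total ChREBP KO arrays Lrp2 lay between 8.22 and 11.55 and Kap at most at 4.98, so Lrp2 weighed heavily in the sums of the members there. What brought these transcripts into the samples was not tested.

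**Figure D5:**
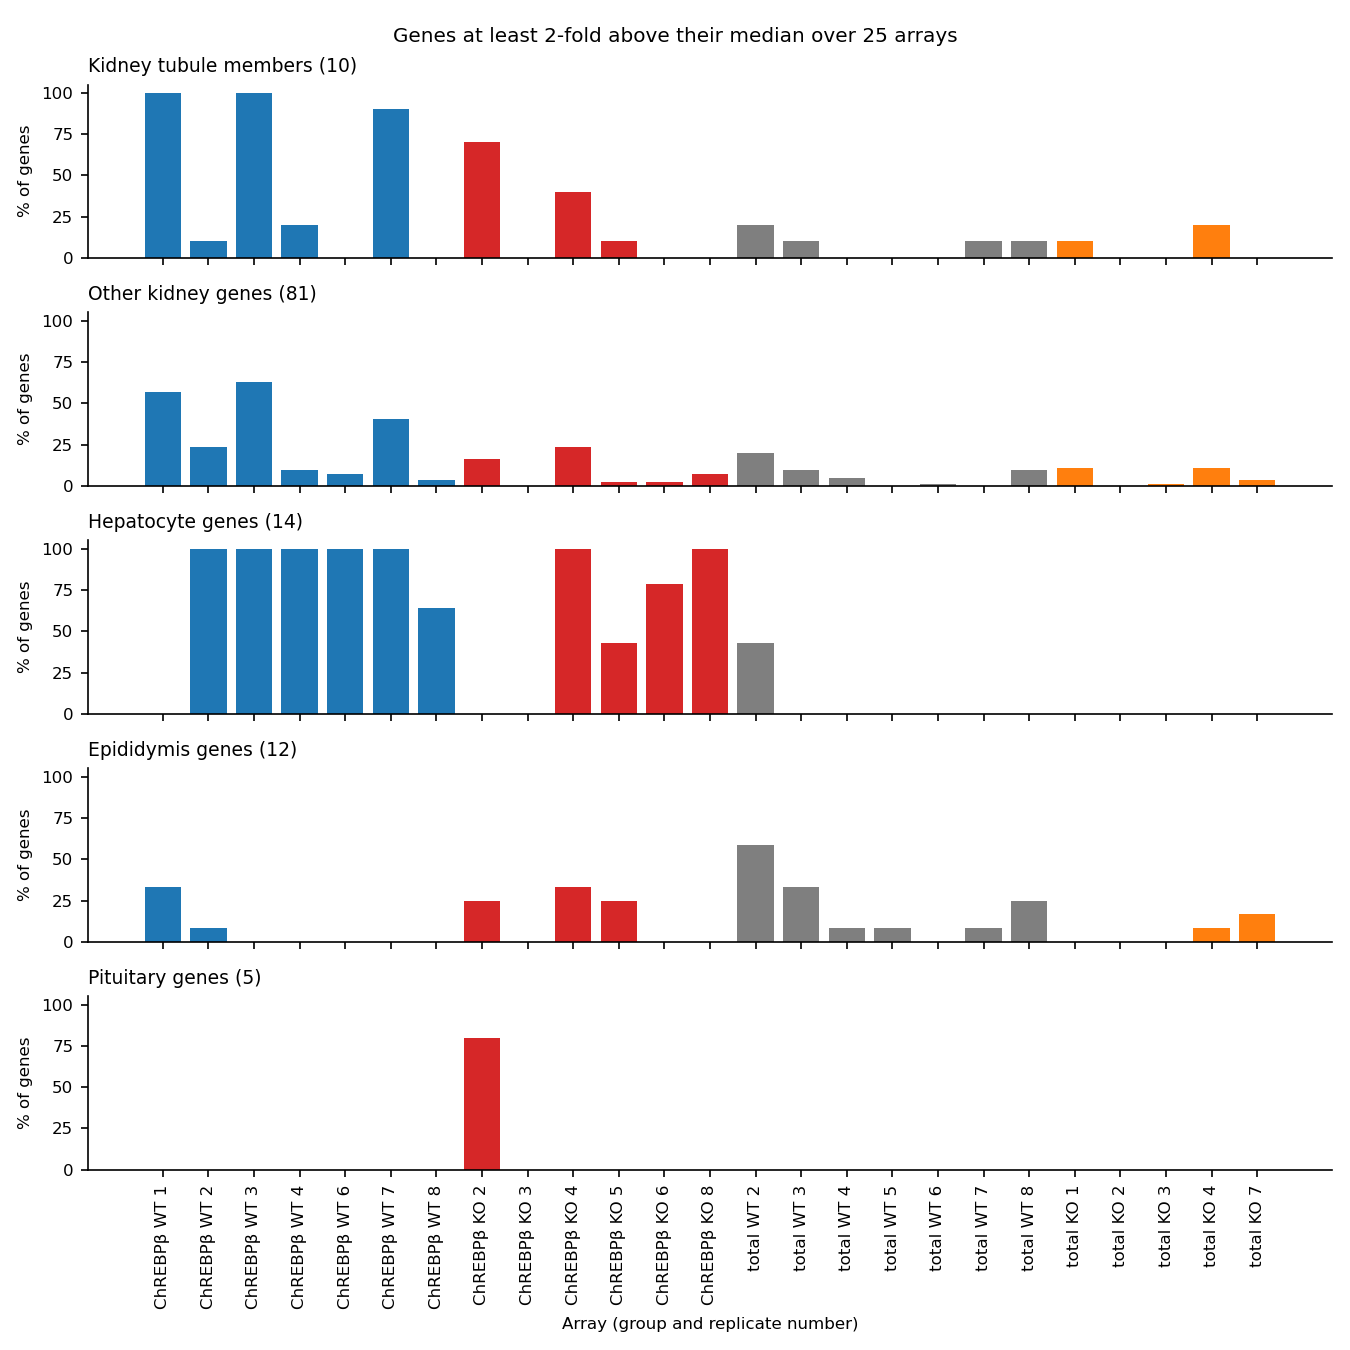
Share of the genes of 5 lists (vertical axis, percent of the genes in brackets) that were at least 2-fold above their own median over 25 arrays, for each array (horizontal axis, group and replicate number). Kidney bars are tallest on ChREBPβ WT 1, 3 and 7, hepatocyte bars on other ChREBPβ arrays as well but at 0 on ChREBPβ WT 1, and the pituitary bar stands on ChREBPβ KO 2 alone. A bar at 0 does not mean that the transcripts were absent.

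The promoters of 9 of the 10 members were in the RefSeq table used here (GRCm38.p6, from 250 bases before to 50 after the start). Hepatocyte nuclear factor 1 (HNF1), which acts in both the proximal tubule and the liver, binds GTTAAT and its reverse complement ATTAAC set 1 base apart, a motif that reads alike on both strands. The shorter motif GTTAAT, searched on both strands and contained in the full one, was in 4 of 9 (Umod, Slc34a1, Slc22a6 and Miox) and in 8.24% of 27025 genes. The full motif of 13 bases with at most 1 mismatch was in 0 of 9 and in 0.248% of all genes. With at most 3 mismatches it was in 3 of 9 and in 9.63% of all, and with at most 2 in 2 of 9 and in 1.58% of all. These stretches are shown with the match in capitals, to let its letters be compared with the motif.
Umod (promoter chr7:119479213-119479512, minus strand): ttttgccaGTTAATGTCTAACtgaggaatg
Slc12a1 (promoter chr2:125152350-125152649, plus strand): ctaaaaggATTAATGATTTACtactagtta
A match describes letters and is no evidence of binding in these samples.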

How the data were processed

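Total RNA of pgWAT was labelled with Cy3 and hybridised to SurePrint arrays (25 arrays). Per the file headers, the deposited intensity values were read with Agilent Feature Extraction 10.10.1.1 (probe places on mm9). The authors' own log2 table, read with limma, filtered on spot weights and quantile normalised with preprocessCore, correlated with the log2 scanner intensity at 0.9998 or more, with column medians of 7.96, and served as an alternative; its centring was not stated.

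From the scanner files, log2 median intensity of gene spots was quantile normalised, with 1478 outlier values missing, and the median taken over spots of a probe, without a filter. The filter of the study would have kept the brightest probe of 5 members. Limma 3.58.1 (R 4.3.3) fitted 4 groups and wash batch (18 residual and 2.69 prior degrees of freedom), and Benjamini-Hochberg adjustment ran over 56605 probes with a threshold of 0.05. No array was a copy of another (r within groups 0.974 to 0.997). Replicates are separate samples per the labels; where mice were not stated to be separate, p-values measure only the spread between samples. The number of arrays limits precision. The script was tested on simulated data. The members, lists and naming rule (all members; the 2 widest-ranging genes of each kidney segment and those that passed; the first 3 genes of other lists; the 10 most like genes) were chosen with earlier results of these data known. Of the listed names 1 was matched by accession and 1 was not matched. No spot was saturated. Some genes that the naming rule picked, and some sequences, are not reported here.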

Additional observations from a re-analysis of the deposited data

Results flagged for a closer look

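Of 44 sets of values (10 members and their mean, in 4 groups), 2 held an array far from the others of its group, where chance flags about 1 in 20. Slc34a1 was lowest on total ChREBP WT replicate 2, at 5.64, with the nearest array at 5.87. Slc12a3 was highest on total ChREBP KO replicate 2, at 4.61, a level not well above background. The ChREBPβ WT arrays were not singled out by this test, since 3 of them were high together.

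Slc12a3 was below the WT mean on every ChREBPβ KO array and above it on every total ChREBP KO array, a difference between the lines of -0.76. This difference was not tested. The ChREBPβ WT mean of 5.14 was set by high arrays like those that chose the members, while the WT median was 4.32 and the KO median 4.40. The probe was well above background on 3 ChREBPβ WT arrays, 1 ChREBPβ KO array and no total ChREBP array, so no opposite response is read from it.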

How the results depend on the processing

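No member passed in total ChREBP KO against WT under any of 37 other settings. The median member difference in that comparison moved from 0.03 to -0.64 with a replicate block in place of wash batch, and lay between -0.19 (without KO replicate 1) and 0.19 (without KO replicate 7) when single arrays were left out. With the replicate block the count of other kidney genes that passed fell from 2 to 1, Slc4a4 being lost (adjusted p = 0.099); leaving out single arrays it lay between 1 and 3. Aqp1 passed under all 37. The replicate numbers did not pair the samples: correlations of same-numbered deviations lay between -0.36 and 0.36, and 1 of 10, 0 of 8 and 2 of 12 samples in the 3 comparisons matched best with their own number. The median for total ChREBP WT minus ChREBPβ WT was -1.67, between -2.01 and -1.12 leaving out single arrays, and 0.0014 without the 4 arrays with 5 or more raised members, an alternative chosen after seeing the data that lowers the difference by its own construction; that for ChREBPβ KO minus WT lay between -1.53 and -0.80 leaving out single arrays. The cause of the other shifts was not tested. The 5 arrays with the highest mean of the members were the same under 3 other scalings, and 8 to 10 of the 10 most alike genes remained, also chosen after seeing the data. Uncalled differences of 8 members changed sign under 1 to 12 settings. The study filter left the brightest probe of 5 members and the series-wide values of the authors that of 6, which were those bright enough to pass. Levels near 4 to 5 are close to background, and order among them carries no information.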

Other observations

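Genes of further organs also stood out on single arrays. Of 5 pituitary genes 4 were raised on ChREBPβ KO replicate 2 and none on the other 24 arrays: the growth hormone gene Gh read 13.76 there and at most 5.18 elsewhere, and Pomc 11.31. All 6 testis germ cell genes were raised on ChREBPβ WT replicate 2, total ChREBP WT replicate 2 and total ChREBP KO replicate 4; the protamine gene Prm1 read 14.08, 11.80 and 11.60 there. Of 7 genes of seminal vesicle and vas deferens 6 were raised on total ChREBP KO replicate 4, where Svs4 read 8.07. Of 7 intestinal epithelium genes 6 were raised on ChREBPβ KO replicate 3, where the sucrase gene Sis read 7.05. No gene of the endothelium, mesothelium or erythroid lists was raised on any array.

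Of 9 genes shared by kidney and liver, 9 were raised on ChREBPβ WT replicates 3 and 7, 8 on ChREBPβ KO replicates 4 and 8, and 0 on ChREBPβ KO replicate 2, where 7 of the 10 tubule genes were. Among them Hao2 had r of 0.98 with the mean of the members.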
